A study of Mus musculus with 9 samples.

Results

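The set held 9 genes of the epithelial junctions, *Cdh1*, *Cldn1*, *Cldn2*, *Cldn12*, *Ocln*, *Tjp1*, *Tjp3*, *F11r* and *Cgn*, chosen by name and matched to the tables through the GENCODE M1 annotation. A row in both tables was found for 8 of the 9, out of 13259 genes in both, and *Cldn1* was not analysed here. RNA was sequenced from AML12 cells, 1 hepatocyte line, derived from the liver of a mouse with a TGF-alpha transgene, 5 days after infection with lentivirus. There were 3 control libraries, 3 of *Srrm2* shRNA 1 and 3 of *Srrm2* shRNA 2. All 3 groups were grown in the same medium, with serum, an insulin supplement and dexamethasone. *Srrm2* encodes a large scaffold protein of nuclear speckles, the nuclear bodies rich in splicing factors. The label of these libraries as replicates does not say whether they came from separate cultures.

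Each of the 2 tables covers 1 hairpin and its controls. The values used were the mean normalized counts, averaged by the authors over control and hairpin libraries together, so they are described as the authors' means with no SD and no n. No value per library and no measure of error was used. How far the depth of a library or the spread between libraries moved the means is therefore not known here. The means give the level of a gene in the pool of control and knockdown cells, and not its change against the control, so no gene is described as raised or lowered by a hairpin. For the same reason they do not show the knockdown, which was not checked here. The paper reports that both hairpins reduced *Srrm2* mRNA and protein, by RT-qPCR and western blot. The means of *Srrm2* were 3428 with shRNA 1 and 3759 with shRNA 2, as deposited. The means summed to 6144608 over the 13424 genes of the shRNA 1 table and to 6393456 over the 13478 genes of the shRNA 2 table. To bring the tables onto one scale, means of the shRNA 2 table were multiplied by 0.951, the median ratio over the 11451 genes whose mean reached 10 in each table. Levels of different genes were compared only per kb, after division by the length of all annotated exons of the gene merged. All values per kb from the shRNA 2 table include the factor of 0.951. The means of that table are given as deposited unless the common scale is named.

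Epithelial cells are held together by several kinds of contact. In adherens junctions, cadherins of neighbouring cells bind each other and are tied to actin by catenins. In tight junctions, claudins form strands that seal or selectively open the space between cells, and scaffold proteins of the ZO family link them to actin and to signalling proteins. In the liver, tight junctions separate the bile canaliculus from the blood side of the hepatocyte.

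The cell line was compared with markers of hepatocytes and of other cells of the liver. All 7 hepatocyte genes had values, from *Krt18*, a keratin of simple epithelia, at 7034 normalized counts per kb in the shRNA 1 table to *Apoa1*, an apolipoprotein, at 31.9. Albumin (*Alb*) stood at 1053 per kb in that table. Of 5 genes of bile duct or progenitor cells 4 had a value. In the same table *Spp1* stood at 2448, *Krt19* at 1537, *Krt7* at 192 and *Sox9* at 162 per kb, and *Epcam* was not analysed here. Of 6 mesenchymal genes 3 had a value, and *Vim*, the intermediate filament of mesenchymal cells, was the highest at 1875. The other mesenchymal genes with a value were low, with *Col1a1* at 0.587 and *Des* at 2.14 per kb. Of 4 leukocyte symbols 2 had a value, with *Ptprc*, the common leukocyte antigen, at 0.911 and *Cd68* at 20.0 per kb, and the 3 endothelial genes were not analysed here. The part of these other markers in the junction results was not tested.

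The junction genes covered a wide range of levels. Percentiles were taken over the genes with a value in the same table, and not over all annotated genes. Per kb, 4 of the 8 stood above the 95th percentile, *Cldn12* and *Cgn* were intermediate, and *Tjp3* and *Ocln* were below the 25th percentile. In the shRNA 1 table the order from the highest was *Cldn2*, *Cdh1*, *Tjp1*, *F11r*, *Cldn12*, *Cgn*, *Tjp3* and *Ocln*. In the shRNA 2 table *Tjp1* and *F11r* changed places, and so did *Cldn12* and *Cgn*. Whether neighbours in this order differ beyond the spread between libraries was not tested. The 4 highest genes held 29.7%, 21.4%, 20.3% and 18.6% of the summed level per kb of the 8 genes in the shRNA 1 table.

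**Figure D1:**
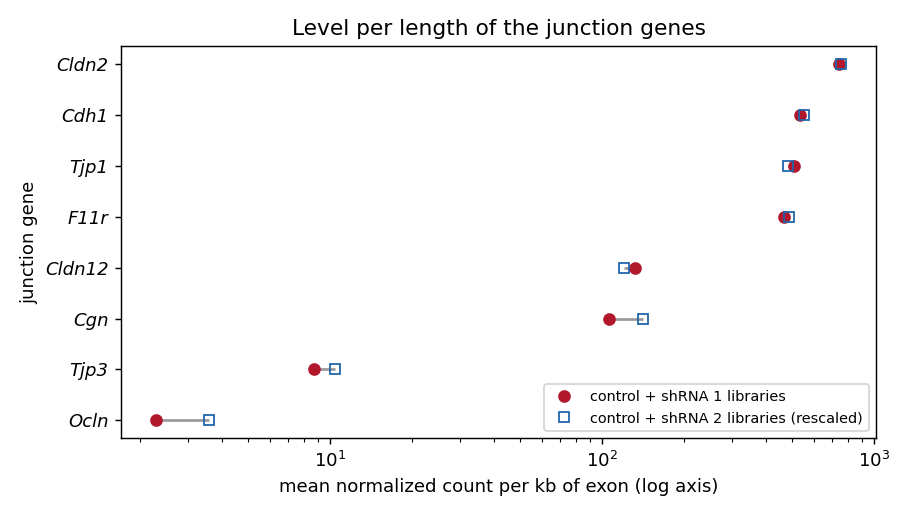
Level of each of the 8 junction genes with values (vertical axis) as mean normalized count per kb of exon on a log axis, with filled circles for the pool of control and shRNA 1 libraries and open squares for the pool of control and shRNA 2 libraries after rescaling. The upper 4 genes lie between 465 and 759, and *Ocln* and *Tjp3* lie at or below 10.4 in both pools. No error bars are drawn, because the means carry none.

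*Cdh1* encodes E-cadherin, the adhesion receptor of epithelial adherens junctions. It occupies 109127251 to 109194146 on chromosome 8 (mm9, + strand), and its longest coding transcript has 16 exons. Its mean normalized count was 2453 in the shRNA 1 table and 2649 in the shRNA 2 table. Per kb this gave 536 and 551 on the common scale, at percentiles 96.6 and 96.8. *Cdh2*, the N-cadherin that hepatocytes carry beside E-cadherin, stood at 449 and 434 per kb. The order of these cadherins depended on the length used. With the length of the longest coding transcript, *Cdh2* was 1.35-fold above *Cdh1* in the shRNA 1 table, and with all exons merged it was 0.838 of it.

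*Cldn2* encodes a claudin that forms channels for cations and water. It lies on the + strand of chromosome X from 136335367 to 136345925, and its longest coding transcript has 2 exons. Its means were 2473 with shRNA 1 and 2654 with shRNA 2, or 744 and 759 per kb, at percentiles 97.8 and 97.9. It was the highest of the 8 genes per kb in both tables. *Cldn12* encodes a claudin outside the classic group. It lies on the - strand of chromosome 5, from 5505109 to 5514958. Its means were 537 and 516, or 132 and 120 per kb. Per kb, *Cldn2* stood 5.64-fold above *Cldn12* in the shRNA 1 table and 6.30-fold in the shRNA 2 table.

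*Ocln* encodes occludin, a tight junction membrane protein with a MARVEL domain, and had the lowest values of the 8 genes. It lies on the - strand of chromosome 13 from 101266462 to 101322673. Its means were 9.62 with shRNA 1 and 16.0 with shRNA 2, or 2.28 and 3.60 per kb, at percentiles 8.66 and 12.5 of the level per kb. The lowest means in the tables were 1.56 and 1.92. *Marveld2*, which encodes tricellulin, the relative of occludin found where 3 cells meet, stood at 27.1 and 33.7 per kb, 11.9-fold and 9.38-fold above *Ocln*.

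*F11r* encodes JAM-A, an adhesion protein with immunoglobulin domains at the tight junction. It lies on the + strand of chromosome 1, from 173367666 to 173394734. Its means were 1238 with shRNA 1 and 1367 with shRNA 2. Per kb this was 465 and 488, at percentiles 96.0 and 96.3. *Cxadr*, a related adhesion protein, stood at 167 and 168 per kb.

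The plaque proteins ZO-1 and ZO-3 differed in level. *Tjp1* encodes ZO-1 and lies on the - strand of chromosome 7 from 72441051 to 72516125. Its means were 3734 with shRNA 1 and 3727 with shRNA 2 as deposited, or 507 and 482 per kb on the common scale. *Tjp3*, which encodes ZO-3, lies on the - strand of chromosome 10 from 80735952 to 80754012. Its means were 26.5 and 33.2, or 8.74 and 10.4 per kb. *Tjp1* was thus 58.1-fold and 46.2-fold above *Tjp3* per kb in the 2 tables. The exons of *Tjp3* share 40 bases with *Apba3*, a gene on the opposite strand.

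*Cgn* encodes cingulin, which binds ZO-1 and the cytoskeleton. It lies on the - strand of chromosome 3, from 94464507 to 94590414, and 173 bases of its exons are shared with the noncoding gene *BC021767* on the same strand. Its means were 693 with shRNA 1 and 973 with shRNA 2, or 106 and 142 per kb, at percentiles 74.9 and 81.6. *Cgnl1*, which encodes the related paracingulin, stood at 345 and 329 per kb, 3.25-fold and 2.32-fold above *Cgn*.

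Both tables hold control libraries. The ratio of their pooled means thus moves away from 1 only as far as the hairpin groups, the controls taken or the scaling differ. The labels of 2 of the 3 control libraries name tables of other hairpins beside that of shRNA 1. The same 3 controls were assumed in both tables, on the same scale after the 1 factor, and this was not tested. Under that assumption, a ratio below 1 means a lower group mean with shRNA 1 than with shRNA 2. The fold between the hairpin groups is then at least that of the pools. With no spread between libraries, the ratios are descriptions and no p-value was computed.

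Most of the 8 genes had nearly equal pools. The ratio of the shRNA 1 pool to the rescaled shRNA 2 pool was 0.980 for *Cldn2*, 0.974 for *Cdh1*, 0.952 for *F11r*, 1.05 for *Tjp1* and 1.09 for *Cldn12*. Of the 6 genes whose means reached 100 in each table, 4 lay within the interquartile range of such genes, which ran from 0.946 to 1.07. *Cldn12* lay above that range and *Cgn* below it. In all, 6 of the 8 ratios were below 1 and 2 above, and the median of the 7 genes whose means reached 10 in each table was 0.974. The median over all 11451 such genes is 1 by the choice of factor.

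*Cgn* stood apart from the others among the well expressed genes. Its pooled mean was 693 in the shRNA 1 table and 926 in the shRNA 2 table on the common scale, a ratio of 0.749, which is lower than that of all but 0.554% of the 7757 genes whose means reached 100 in each table. Under the assumption of equal controls on the same scale, the mean of the shRNA 2 group was 465 normalized counts above that of the shRNA 1 group. This is on the scale of the shRNA 1 table, and the shRNA 2 group was at least 1.34-fold higher. The control level of *Cgn* is not fixed by these means, so they do not say with which hairpin *Cgn* differed from the control.

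A difference between pools was counted where 1 pool was more than 25% above the other. Among the 7 genes this was 1 gene, *Cgn*, and over the 11451 genes it was 8.29%, in either direction. In the direction of a lower shRNA 1 pool the share of all genes was 3.88%. *Tjp3* was the next, with pooled means of 26.5 and 31.6 on the common scale and a ratio of 0.839. Of the 3694 genes whose means reached 10 in each table but not 100, 13.7% had a lower ratio than *Tjp3*. *Ocln* had the lowest ratio, 0.634, from means of 9.62 and 15.2 on the common scale, but fell under the minimum of 10 in the shRNA 1 table. Of the 1808 genes under that minimum in a table, 44.8% differed by more than 25%, and 9.13% had a lower ratio than *Ocln*.

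**Figure D2:**
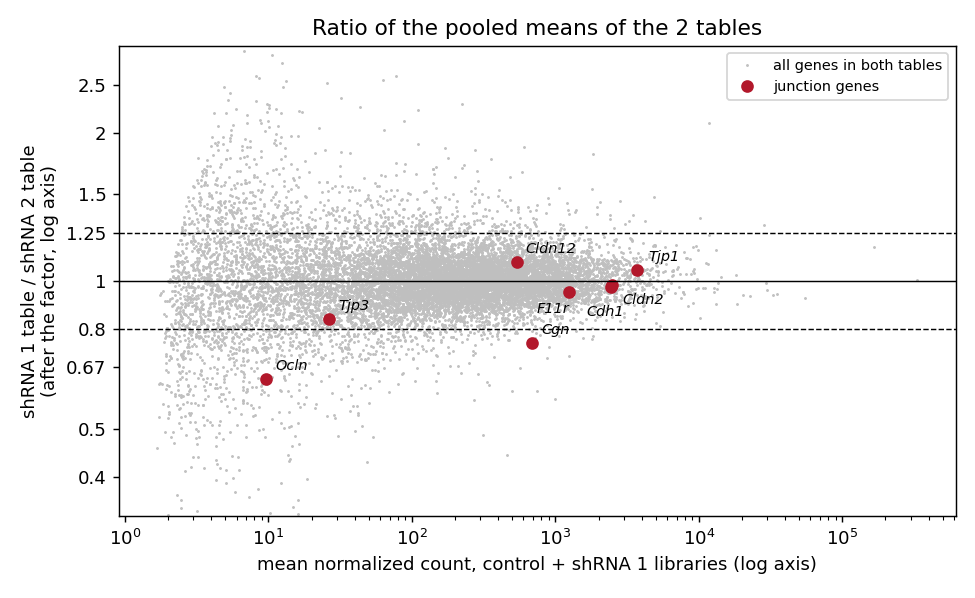
Ratio of the pooled mean of the shRNA 1 table to that of the shRNA 2 table after the factor (log axis) against the mean normalized count in the shRNA 1 table (log axis), with a grey point for each of the 13259 genes in both tables and red points for the 8 junction genes. The dashed lines mark a difference of 25% in each direction, *Cgn* and *Ocln* lie below the lower line, and 20 genes lie outside the plotted range.

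The other genes of cell junctions were taken from 5 lists of 52 genes, of which 37 had a value. Of the 34 whose means reached 10 in each table, 2 differed by more than 25% with the shRNA 1 pool lower and 0 with it higher. Over all 11451 such genes, 8.29% differed by more than 25% in either direction, and 3.88% with the shRNA 1 pool lower. The median ratio of the 34 was 0.990. In adherens junctions, 10 of 11 genes had values. The highest were *Ctnna1*, *Ctnnb1* and *Ctnnd1*, which encode the alpha, beta and p120 catenins, at 1219, 1187 and 698 per kb in the shRNA 1 table. Their ratios of pools were 0.989, 1.14 and 0.917.

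Of 17 other membrane proteins of tight junctions, 6 had values, and they were lower than the catenins. *Cxadr*, *Igsf5* and *Cldn6* led, at 167, 98.8 and 50.3 per kb in the shRNA 1 table. All 5 genes of this list with a mean of at least 10 had a ratio below 1, and their median was 0.805. Over all 11451 genes whose means reached 10 in each table, the median is 1 by the choice of factor. Of the 5, *Cxadr* and *Igsf5* lay near 1, at 0.991 and 0.973. The 2 that differed by more than 25% were *Cldn6*, with means of 75.7 and 111 as deposited and a ratio of 0.718, and *Esam*, an immunoglobulin-domain adhesion protein best known from endothelium, with means of 32.5 and 47.2 and a ratio of 0.724. Both had a mean under 100 in a table, and of the 3694 genes whose means reached 10 in each table but not 100, 16.9% differed by more than 25% in either direction. *Marveld2*, with a mean of 91.8 in the shRNA 1 table, lay just inside that limit at 0.805. *Esam* was named after its value was seen.

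Of 15 genes of the tight junction plaque and cell polarity, 14 had values. *Cgnl1*, *Prkci*, which encodes an atypical protein kinase C of the polarity complex, and *Dlg1*, which encodes a scaffold protein of the lateral membrane, led at 345, 322 and 231 per kb in the shRNA 1 table. No gene of this list differed by more than 25%, where 8.29% of the 11451 genes did. Most genes of the list had means of at least 100 in each table. Among all 7757 such genes the share was 4.18%. Of its ratios, 8 were above 1 and 6 below, and the median was 1.02. *Cgnl1* had a ratio of 1.05, where its relative *Cgn* had 0.749.

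**Figure D3:**
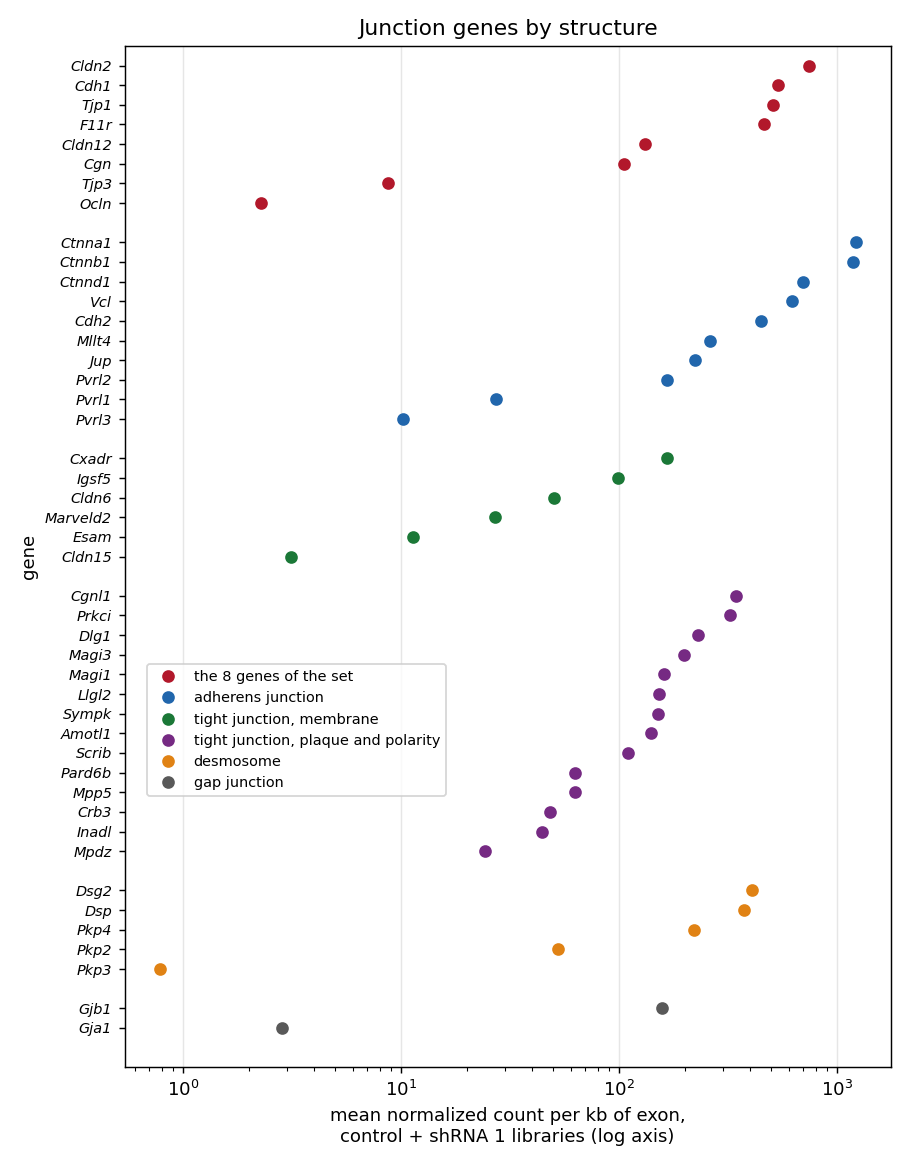
Level of each junction gene with a value in the shRNA 1 table (one row per gene) as mean normalized count per kb of exon on a log axis, coloured by list. The catenins *Ctnna1* and *Ctnnb1* are highest at 1219 and 1187, and *Pkp3* is lowest at 0.782. *Ocln* at 2.28 lies near *Gja1* at 2.86 and *Cldn15* at 3.13.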

How the data were processed

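RNA of 9 AML12 libraries was sequenced. The labels give total RNA as the molecule, and the paper's methods describe polyA enrichment with a kit named for total RNA. Per the labels and the paper's methods, the authors mapped reads to mm9 with TopHat2, kept unique pairs, obtained gene counts with HTSeq on GENCODE M1, and used DESeq2 version 1.8.2. The signal used is the deposited mean normalized count of each gene, averaged by the authors over control and hairpin libraries. The deposited tables also hold the authors' own comparisons (fold change, standard error, test statistic, p-values), which were not used. The paper's methods call the libraries strand-specific, and the strand setting of the counting is not given in the sources used here.

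All 13643 gene identifiers matched GENCODE M1 on NCBIM37, the assembly of mm9. Lengths, coordinates and overlaps were taken from it. Tables were brought to 1 scale by the median ratio, and genes whose pools differed by more than 25% were counted where both means reached 10. The genes and lists were chosen with earlier results of these data known. Named beside the 9 genes are up to 3 genes per junction list with the highest level per kb. Relatives of the 9 genes, cell type markers, *Esam*, *Pkp3*, *Gja1* and *Cldn15* were named after their values were seen. Of the genes in the lists, 1 is not reported here. Alternatives were another length, other factors, folds and minimum means. Python 3.11.15, numpy 2.4.6, pandas 2.3.3 and matplotlib 3.10.9 were used.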

Additional observations from a re-analysis of the deposited data

How the results depend on the processing

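The count of genes whose pools differed by more than 25%, 949 at a minimum mean of 10, was 4120 at a fold of 1.1, 178 at 1.5, 1759 with no minimum mean and 324 at a minimum mean of 100. At a fold of 1.1, *Tjp3* joined *Cgn* among the junction genes past it, and at 1.5 none of the 7 was. With no factor between the tables, *Tjp3* also passed 25%, at 0.798. The number of junction genes with a ratio below 1 was 6 with each of the 4 factors, and the order of the 8 genes per kb in the shRNA 1 table was the same with the longest coding transcript. Its length raised *Cldn12* to 149 and *Cgn* to 138 per kb. Set against only the genes whose means reached 10 in each table, the percentiles of *Tjp3* and *Ocln* fell to 8.94 and 0.725, since low genes had been left out. *Ocln* itself did not reach that minimum. No paired analysis was possible because the means pool the libraries, and for the same reason no replicate was left out in turn. The ratios carry no spread between libraries and assume the same 3 controls in both tables, on the same scale after the factor.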

Other observations

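Desmosomes, which tie keratin filaments of neighbouring cells together, were represented by 5 genes with a value in the shRNA 1 table. *Dsg2*, a desmosomal cadherin, stood at 407 normalized counts per kb, *Dsp*, the desmoplakin that binds keratins, at 373 and *Pkp4*, an armadillo protein, at 221. *Pkp3* stood at 0.782. Of the gap junction genes, *Gjb1*, the main connexin of hepatocytes, stood at 158 per kb in both tables. *Gja1*, the connexin of many mesenchymal cells, stood at 2.86 and 1.37 per kb in the 2 tables. Its means of 8.89 and 4.46 as deposited gave a ratio of 2.09 after the factor. Of the 1808 genes with a mean under 10 in a table, 1.71% had a higher ratio and 44.8% differed by more than 25% between pools.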
